A study of Rattus norvegicus with 15 samples.

Results

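Subfield marker genes of the rat hippocampus were followed across the libraries of a vagus nerve stimulation study. The set comprised 6 gene symbols, namely Prox1, Wfs1, Galnt3, Sipa1l2, Dsp and Amigo2, taken as markers of CA1, CA2, CA3 and the dentate gyrus. They were chosen by name, and RefSeq transcript records were matched to them by accession. Of the 6 symbols, 5 had a record among the 18278 records of the count tables, with 1 record each. Dsp, which encodes the desmosomal linker protein desmoplakin, had none and was not analysed here. The hippocampus was represented by 4 libraries from rats with a working vagus nerve stimulator (VNS) and 3 from controls with a sham device. Stimulation lasted 30 min on each of 4 days, and the rats that gave hippocampus also did a novelty preference task of 10 min on each of days 2 to 4. Cortex came from 4 VNS and 4 sham control libraries. Tissue was taken right after the last stimulation session, and the sources used here do not give strain, sex or age.

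The hippocampal formation passes excitatory signals from the granule cells of the dentate gyrus to the pyramidal cells of CA3, and from there to CA2 and CA1. Each of these cell populations has a transcription programme of its own, so that single genes can mark a subfield within bulk tissue. Prox1 encodes a homeobox transcription factor that specifies and maintains granule cells, and it is also expressed in parts of the thalamus and in some interneurons. Wfs1 encodes wolframin, a membrane protein of the endoplasmic reticulum that marks CA1 pyramidal cells. Amigo2 encodes a leucine-rich repeat adhesion protein that marks CA2. Galnt3 encodes an enzyme that starts mucin-type O-glycosylation, and Sipa1l2 encodes a synaptic regulator of Rap GTPase signalling.

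Hippocampal libraries held 16728486 to 51463555 counts and cortex libraries 329130 to 435296. The libraries labelled as hippocampal controls 1 and 2 stood apart from the other 5 in markers of brain regions. Summed over 6 forebrain excitatory neuron records, control libraries 1, 2 and 3 gave 601.1, 147.1 and 3469 CPM (counts scaled to a common library size), and the VNS libraries 2891 to 4559 CPM. Summed over 8 thalamic records, the same controls gave 2169, 488.3 and 136.2 CPM, and the VNS libraries 124.2 to 273.1 CPM. None of these 14 records was at 0 in any library. Control libraries 1 and 2 were not alike. In control library 2 most of the thalamic sum came from Slc17a6, a vesicular glutamate transporter gene, at 347.4 CPM. Lef1 (14.0 CPM), Zic1 (14.5 CPM) and Lhx9 (12.2 CPM) also lay above the VNS range there. Prkcd (11.8 CPM), Synpo2 (5.33 CPM) and Ntng1 (51.4 CPM) lay within the VNS range and Plekhg1 (31.7 CPM) below it. Summed over 8 brainstem records, of which 1 to 4 were at 0 in each library, controls 1, 2 and 3 gave 18.0, 57.3 and 9.73 CPM, and the VNS libraries 6.39 to 19.7 CPM. Ribosomal RNA took 73.1% of the counts of VNS library 3 and 7.11% to 31.6% of the others. Every comparison that includes control libraries 1 and 2 carries these differences, and their part in the results was not tested.

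The first question was how the 5 genes differed between VNS and control hippocampus. Prox1, Wfs1 and Galnt3 had higher means after VNS, and Sipa1l2 and Amigo2 had lower means, but no gene passed the test. Of the 5, 0 passed edgeR's quasi-likelihood test at an adjusted p of 0.05 (0% of 12728 records tested did). Sipa1l2 alone had an unadjusted p under 0.05 (12.1% of all records did), and for no gene were the VNS and control libraries fully separated (9.28% of records were, 4.67% with VNS higher and 4.61% with VNS lower). The log2 fold change was above 0 for 3 of the 5, with a median of 0.84, against 49.2% of all records and a median of -0.01. In bulk tissue, fewer cells of a type and less RNA per cell cannot be told apart.

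**Figure D1:**
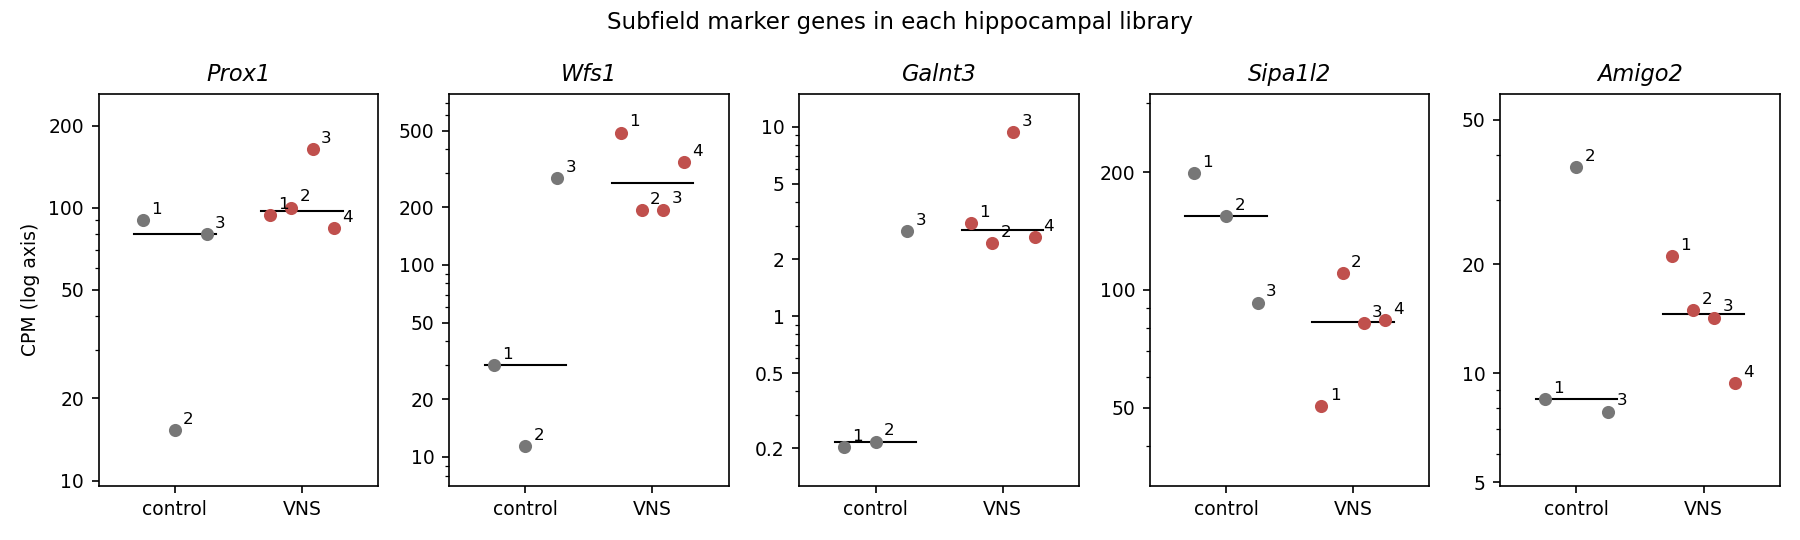
Level of each gene in each hippocampal library in CPM on a log axis, with control libraries in grey and VNS libraries in red, numbered by library. Horizontal lines are group medians. For Wfs1 and Galnt3, control libraries 1 and 2 sit far below the other 5 libraries, whereas for Prox1 only control library 2 is low and for Amigo2 control library 2 is the highest.

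For Prox1, control libraries 1, 2 and 3 gave 89.8, 15.3 and 80.0 CPM, and VNS libraries 1 to 4 gave 94.0, 100.02, 163.8 and 84.2 CPM. Control library 2 was the low one, at a level that control library 3 exceeded 5.22-fold. Control library 1 lay between VNS libraries 1 and 4, so the groups overlapped. The value of VNS library 3 depended on the scaling: by total counts, with its ribosomal RNA included, it was 48.2 CPM and the lowest of the 4. With ribosomal and 7SL RNA left out of the total it was 187.4 CPM and the highest of the 4. The control mean was 61.7 ± 40.5 CPM (SD, n = 3), and the VNS mean 110.5 ± 36.1 CPM (SD, n = 4). The log2 fold change was 0.84 (SE 0.54, edgeR adjusted p = 0.48). Without control library 2 it was 0.38 (SE 0.28, edgeR adjusted p = 0.76). The Prox1 record, NM_001107201, spans positions 113004597 to 113060843 of chromosome 13 on the plus strand in rn5, with 5 exons.

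Prox1 did not follow the other granule cell genes in control library 1. In that library, where the thalamic marker sum was highest, Prox1 was 1.12 times its level in control library 3, and the part of thalamic RNA in that value was not tested. Neurod1, a transcription factor of granule cell differentiation, gave 0.65, 0.91 and 15.7 CPM over the 3 controls, with 15.3 to 23.6 CPM for the VNS libraries. C1ql2, a synaptic organiser secreted by granule cells, gave 3.73, 9.33 and 44.9 CPM over the controls, with 4.58, 58.8, 63.4 and 57.4 CPM for VNS libraries 1 to 4. The C1ql2 level of VNS library 1 thus lay between those of control libraries 1 and 2, while its Prox1 level of 94.0 CPM was near the median of the 7 libraries, 89.8 CPM. Plk5, another granule cell gene, was also low in VNS library 1, at 0.36 CPM, against 5.85 to 6.51 CPM in VNS libraries 2 to 4. Calb1 was lower there too, at 36.5 CPM, against 51.6 to 75.6 CPM in VNS libraries 2 to 4. So was Ablim3, at 14.6 CPM, against 22.0 to 38.4 CPM. Neurod1, Cdh9 and Trpc6 were not low there. In VNS library 1 Neurod1 was at 22.2 CPM and Cdh9 at 37.1 CPM, each the second highest of the 7 libraries. Trpc6, a cation channel gene, was at 24.9 CPM there, against 13.4 to 32.8 CPM in the other VNS libraries. Stxbp6, at 34.9 CPM, lay just below the other VNS libraries (35.8 to 59.6 CPM).

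Sipa1l2 had its highest values in the controls with the lowest Wfs1. Control libraries 1, 2 and 3 gave 198.4, 154.0 and 92.8 CPM, and VNS libraries 1 to 4 gave 50.6, 110.5, 82.1 and 83.8 CPM. Control libraries 1 and 2 were the highest of the 7, and control library 3 lay within the VNS range. The control mean was 148.4 ± 53.0 CPM (SD, n = 3), and the VNS mean 81.7 ± 24.5 CPM (SD, n = 4), for a log2 fold change of -0.86 (SE 0.31, edgeR adjusted p = 0.40). The unadjusted p was 0.024. Without control libraries 1 and 2 the log2 fold change was -0.20 (SE 0.34, edgeR adjusted p = 0.999953), with the lone control taken to vary as much as the VNS libraries do. The record, NM_001009704, spans 68936977 to 69098880 of chromosome 19 on the minus strand in rn5, with 24 exons.

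The sequence just before the start of Sipa1l2 is shown because it holds a repeated motif. In the RefSeq promoter table (build GRCr8), which matched 5 of the 6 symbols (not Prox1), the 250 bases before the start lie at chr19:70437774-70438023 on the minus strand. Capitals mark matches to the CCAAT box, a common promoter element, searched as CCAAT on both strands.
Sipa1l2: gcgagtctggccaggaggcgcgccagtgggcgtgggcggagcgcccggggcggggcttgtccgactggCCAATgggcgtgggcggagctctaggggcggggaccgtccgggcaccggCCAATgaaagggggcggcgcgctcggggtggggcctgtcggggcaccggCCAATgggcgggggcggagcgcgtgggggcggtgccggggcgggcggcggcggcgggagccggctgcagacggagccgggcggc
The 3 matches start 182, 133 and 84 bases before the gene's start, at an equal distance of 49 bases. The 15 bases centred on neighbouring matches are identical at 11 and 12 positions. These include the 5 bases of the motif itself, which are identical because of the search. Of 33469 promoter windows of this length, 34.0% hold at least 1 CCAAT match and 2.52% at least 3. The window also holds 11 matches to GGGCGG, the GC box (7.41% of windows hold at least 3), none to CANNTG, the E-box bound by neuronal bHLH factors, and none to TATAAA. Its GC content was 81.2%, against a median of 51.2% over all windows. No share was computed for 11 GGGCGG matches or among windows of like GC content. A match is a description of the letters and not a measured binding site.

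Wfs1 ranged 43.0-fold over the 7 libraries. Control libraries 1, 2 and 3 gave 30.0, 11.3 and 282.7 CPM, and VNS libraries 1 to 4 gave 487.5, 193.2, 194.1 and 341.9 CPM. Control libraries 1 and 2 lay far below every other library, and control library 3 lay inside the VNS range. The level in control library 3 was 9.43 times that in control library 1 and 24.9 times that in control library 2. The control mean was 108.02 ± 151.6 CPM (SD, n = 3), and the VNS mean 304.2 ± 140.8 CPM (SD, n = 4), with a log2 fold change of 1.49 (SE 0.97, edgeR adjusted p = 0.49). Without control libraries 1 and 2 it was 0.10 (SE 0.47, edgeR adjusted p = 0.999953). The record, NM_031823, spans 78613741 to 78630689 of chromosome 14 on the plus strand in rn5, with 7 exons.

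Galnt3 showed the same split of the controls at a low level. It had 10, 12 and 136 counts in control libraries 1, 2 and 3, and 209, 50, 46 and 105 counts in VNS libraries 1 to 4. On the CPM scale these were 0.20, 0.22 and 2.82 in controls and 3.10, 2.43, 9.35 and 2.60 after VNS. The exact Poisson 95% intervals reached 0.37 and 0.38 CPM at most in control libraries 1 and 2 and began at 1.80 CPM or above in the other 5 libraries. These intervals cover counting error only. Control library 3 lay among VNS libraries 1, 2 and 4, and VNS library 3 was the highest, with an interval of 6.85 to 12.5 CPM. The control mean was 1.08 ± 1.505 CPM (SD, n = 3), and the VNS mean 4.37 ± 3.33 CPM (SD, n = 4). The log2 fold change was 1.94 (SE 1.002, edgeR adjusted p = 0.42), and 0.48 (SE 0.71, edgeR adjusted p = 0.999953) without control libraries 1 and 2. The record, NM_001015032, spans 58806679 to 58830432 of chromosome 3 on the minus strand in rn5, with 10 exons.

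Wfs1 and Galnt3 were both lowest in control libraries 1 and 2, so the 250 bases before their starts are set side by side, with CCAAT matches in capitals (ATTGG is the match on the opposite strand). The windows lie at chr14:78034955-78035204 on the plus strand and chr3:71174324-71174573 on the minus strand in GRCr8.
Wfs1: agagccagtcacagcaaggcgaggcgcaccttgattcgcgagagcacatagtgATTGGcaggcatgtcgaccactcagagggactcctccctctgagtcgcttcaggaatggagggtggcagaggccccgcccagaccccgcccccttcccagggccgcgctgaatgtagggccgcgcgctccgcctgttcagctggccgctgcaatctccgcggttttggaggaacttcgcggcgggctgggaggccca
Galnt3: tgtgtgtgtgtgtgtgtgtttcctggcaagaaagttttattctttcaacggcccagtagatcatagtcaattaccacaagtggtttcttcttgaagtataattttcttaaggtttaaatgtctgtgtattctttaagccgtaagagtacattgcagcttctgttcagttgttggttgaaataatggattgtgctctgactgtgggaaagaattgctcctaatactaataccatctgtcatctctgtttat
The windows shared little in composition. That of Wfs1 had a GC content of 66.0%, 1 CCAAT match, 2 GGGCGG matches and 1 CANNTG match. That of Galnt3 had a GC content of 36.8%, which only 8.6% of windows equal or fall below, with 3 CANNTG matches (11.5% of windows hold at least 3) and none to CCAAT or GGGCGG. Neither held TATAAA.

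Amigo2, the CA2 gene, was high in another library. Control libraries 1, 2 and 3 gave 8.49, 36.96 and 7.83 CPM, and VNS libraries 1 to 4 gave 21.1, 14.9, 14.2 and 9.39 CPM. Control library 2 was the highest of the 7, at 4.72 times control library 3, and the other 2 controls were the lowest. The control mean was 17.8 ± 16.6 CPM (SD, n = 3), and the VNS mean 14.9 ± 4.78 CPM (SD, n = 4), with a log2 fold change of -0.25 (SE 0.55, edgeR adjusted p = 0.85). The direction depended on control library 2 and on the method. Without control library 2 the log2 fold change was 0.87 (SE 0.32, edgeR adjusted p = 0.74). With limma-voom on all 7 libraries it was 0.092 (SE 0.58). The record, NM_182816, is a single exon of 3097 bases at 138327614 to 138330710 of chromosome 7 on the minus strand in rn5. Rgs14, which marks CA2 and restrains plasticity there, did not share the peak in control library 2. Its 3 control values were 4.01, 2.21 and 84.1 CPM, and its 4 VNS values 262.1, 70.9, 73.4 and 95.4 CPM.

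The 250 bases before the start of Amigo2, at chr7:130273736-130273985 on the minus strand in GRCr8, are shown for comparison with those of Sipa1l2, since these were the 2 genes with lower means after VNS.
Amigo2: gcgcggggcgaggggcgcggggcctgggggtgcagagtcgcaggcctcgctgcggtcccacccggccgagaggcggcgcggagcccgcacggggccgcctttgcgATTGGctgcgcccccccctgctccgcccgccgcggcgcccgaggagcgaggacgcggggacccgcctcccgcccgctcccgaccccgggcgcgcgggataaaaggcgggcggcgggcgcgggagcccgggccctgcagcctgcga
This window had a GC content of 82.8% and held 1 CCAAT match, 3 GGGCGG matches and no match to CANNTG or TATAAA.

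Levels of different genes were compared per kilobase of record length. After VNS the order was Wfs1 at 111.4 ± 51.6 CPM per kb, Prox1 at 26.8 ± 8.76, Sipa1l2 at 12.3 ± 3.67, Amigo2 at 4.81 ± 1.54 and Galnt3 at 1.59 ± 1.21 (SD, n = 4 each). The ranges over the 4 VNS libraries did not overlap between neighbours in this order, except for Amigo2 (3.03 to 6.80) and Galnt3 (0.88 to 3.40). Control library 3 had the same order. In control libraries 1 and 2 Sipa1l2 was the highest of the 5, at 29.8 and 23.1 CPM per kb.

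The ratio of Wfs1 to Prox1, both per kilobase, compares a CA1 gene with a granule cell gene inside each library and does not depend on library scaling. It was 0.50, 1.12 and 5.35 in control libraries 1, 2 and 3. After VNS it was 7.84, 2.92, 1.79 and 6.14 in libraries 1 to 4. Control library 3 lay within the VNS range, and control libraries 1 and 2 lay below it. Among the VNS libraries, library 1 had the highest ratio and library 3 the lowest.

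**Figure D2:**
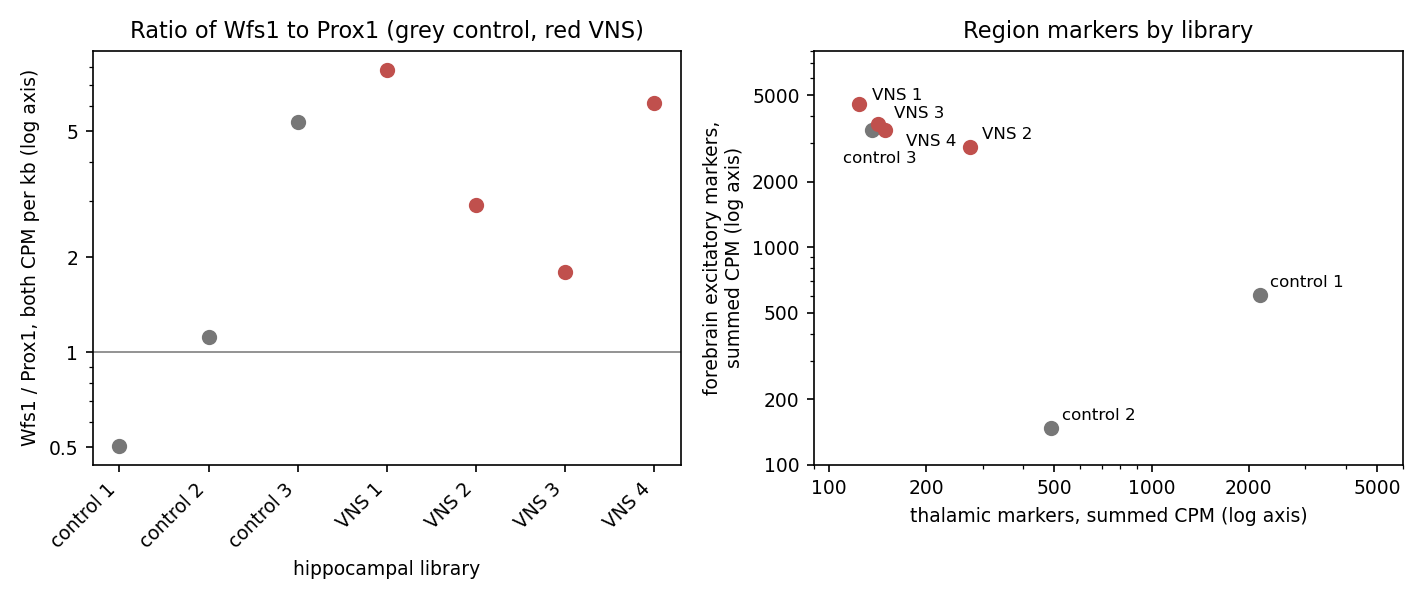
Left, ratio of Wfs1 to Prox1 (both CPM per kb, log axis) in each hippocampal library, with controls in grey and VNS in red. Right, summed CPM of 6 forebrain excitatory records (vertical) against that of 8 thalamic records (horizontal), both on log axes. Control libraries 1 and 2 have ratios of 0.50 and 1.12 and lie away from the other 5 libraries in the right panel.

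Other genes of each subfield, named in lists, had mostly positive log2 fold changes as well. Of 8 dentate granule genes tested, 8 were higher after VNS and 0 passed (median log2 fold change 0.89). Cdh9, a cadherin, had the smallest p in that list (log2 fold change 1.82, SE 0.69), followed by Stxbp6, a regulator of vesicle fusion (0.72, SE 0.33). Of 5 CA1 genes tested, 5 were higher and 0 passed (median 1.16). They included Pou3f1, a POU-domain transcription factor (1.16, SE 0.81), and Mpped1, a predicted phosphoesterase (1.07, SE 0.79). Of 6 CA2 genes, 4 were higher, 2 lower and 0 passed (median 0.80). There Actn2, an actin crosslinker, was at 1.25 (SE 0.41) with all VNS libraries above all controls, as in 4.67% of all records, and the growth factor gene Fgf2 was at 0.49 (SE 0.21). Of 6 CA3 genes, 4 were higher, 2 lower and 0 passed (median 0.42), with the serine protease gene Prss23 at 2.07 (SE 0.67) and Coch, which encodes the extracellular matrix protein cochlin, at -2.42 (SE 0.87). Over all 12728 records the median was -0.01. An unadjusted p under 0.05 was found for 1 of the 8 dentate, 0 of the 5 CA1, 3 of the 6 CA2 and 3 of the 6 CA3 genes, and for 12.1% of all records.

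Without control libraries 1 and 2, the medians of the other subfield genes were 0.07 for the dentate list (5 of 8 higher), -0.19 for CA1 (1 of 5), 0.40 for CA2 (5 of 6) and 0.32 for CA3 (5 of 6). No gene of these lists passed edgeR's test, and 0% of 13111 records did (0.801% had an unadjusted p under 0.05). The 5 genes described here had a median of 0.45 in that fit, with 4 of 5 higher. Over all 13111 records in that fit the median was 0.009, and 6745 records were higher.

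**Figure D3:**
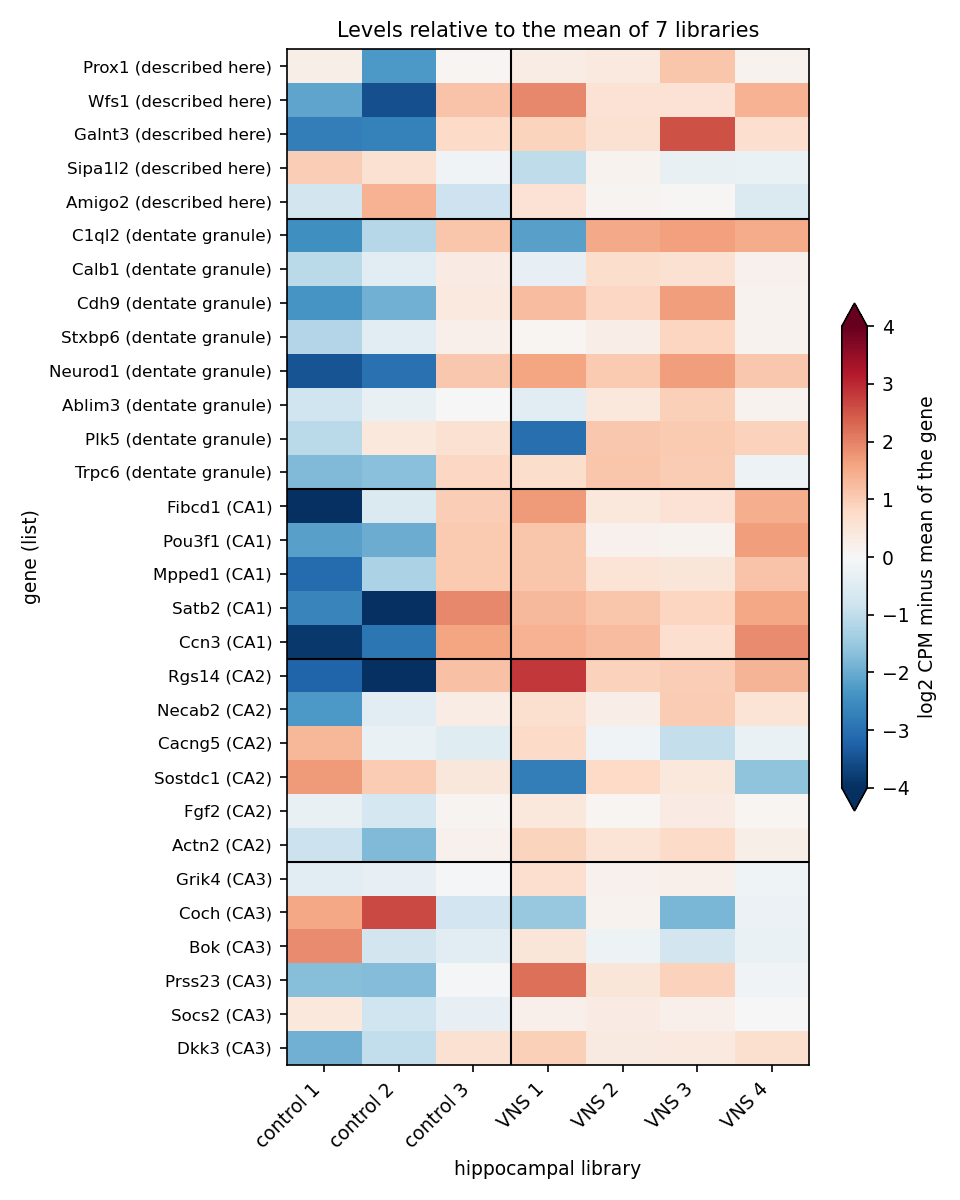
Level of each tested subfield gene in each hippocampal library, as log2 CPM (prior count 2) minus the mean of that gene over the 7 libraries. Rows are genes grouped by list and columns are libraries, with red for higher and blue for lower. Control libraries 1 and 2 are blue for most genes of the dentate and CA1 lists, whereas Sipa1l2, Sostdc1 and Coch are red in both.

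For each of the 5 genes, the 3 records with the most similar level over the 7 libraries were found among 10735 records, by Pearson's r of log2 CPM. These r values describe 7 libraries in which control libraries 1 and 2 stand apart, and they carry no test. Nearest to Prox1 were Dlgap4 (r = 0.995), Klf3 (0.989) and Jmjd1c (0.983). Nearest to Wfs1 were Dgkz (0.998), Pik3r2 (0.997) and Lrrc10b (0.996). Dgkz, a diacylglycerol kinase, gave 183.3, 100.4 and 637.4 CPM over the controls and 504.1 to 991.8 CPM over the VNS libraries, the same order of libraries as Wfs1. Nearest to Galnt3 were Celf2 (0.995), Pcgf3 (0.993) and Tbc1d10a (0.992). Nearest to Sipa1l2 were Grm4 (0.990), Cmtm5 (0.989) and Arhgap22 (0.989). Grm4, a metabotropic glutamate receptor, gave 96.2, 58.7 and 16.4 CPM over the controls and 6.74 to 30.0 CPM over the VNS libraries. Nearest to Amigo2 were 6330403K07Rikl (0.978), Txnl1 (0.971) and Pclo (0.954).

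Markers of interneurons and oligodendrocytes also differed between libraries. Summed over 8 interneuron records, control libraries 1, 2 and 3 gave 870.7, 900.03 and 453.04 CPM and the VNS libraries 517.8 to 554.5 CPM, with no record at 0. Most of the sums of control libraries 1 and 2 came from Gad1, Gad2 and Slc32a1, genes of GABA synthesis and vesicular transport. The neuropeptide genes Npy (5.36 and 3.35 CPM) and Sst (4.07 and 25.7 CPM) were instead at their lowest in control libraries 1 and 2. Vip, Cck and Pvalb were at their highest in control library 1, at 36.4, 159.1 and 104.2 CPM. In control library 2 they gave 11.45, 22.2 and 24.8 CPM, with Cck at its lowest there. Over 14 oligodendrocyte records, of which 5 were at 0 in every library, the controls gave 7781, 6362 and 4292 CPM and the VNS libraries 2059 to 4901 CPM. Like Sipa1l2, the interneuron and oligodendrocyte sums were higher in control libraries 1 and 2 than in any other library. The part of these cells in the Sipa1l2 values was not tested.

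The second question was whether the fold changes depended on single control libraries. Without control library 3, 3 of the 5 genes passed edgeR's test, as did 10.6% of 12931 records. In that fit Wfs1 had a log2 fold change of 3.88 (SE 0.58, edgeR adjusted p = 0.0067), Galnt3 one of 4.26 (SE 0.74, edgeR adjusted p = 0.012) and Sipa1l2 one of -1.11 (SE 0.27, edgeR adjusted p = 0.038). The 2 controls left in that fit are the libraries with low forebrain markers. Prox1 (1.07, SE 0.61) and Amigo2 (-0.60, SE 0.51) did not pass there.

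**Figure D4:**
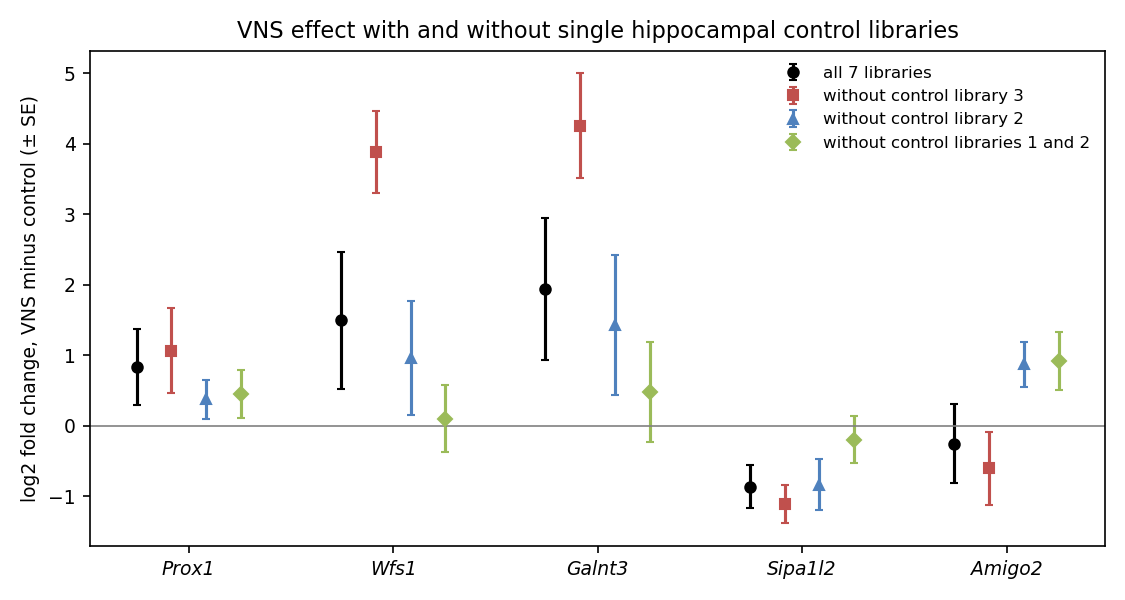
Log2 fold change (VNS minus control) of the 5 genes with standard errors from edgeR, with all 7 libraries and without the control libraries named in the legend. Wfs1 runs from 0.10 without control libraries 1 and 2 to 3.88 without control library 3, and Amigo2 changes sign without control library 2.

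In cortex the 5 genes were too sparsely counted to be tested, and 0 of them passed the filter on low counts (1 of 3884 tested records, 0.0257%, passed edgeR's test there). Prox1 had 0, 11, 3 and 3 counts in control libraries 1 to 4 and 2, 0, 3 and 8 in VNS libraries 1 to 4. Sipa1l2 had 4, 12, 6 and 1 counts in controls and 4, 2, 5 and 4 after VNS. Wfs1 had 1 count in VNS library 1, 0 in library 2, 5 in library 3 and 6 in library 4, and 2 to 4 in controls. Amigo2 had 0 to 4 counts in every library. Galnt3 had 1 count in all 8 libraries together. A count of 0 there allows up to 7.09 to 9.83 CPM per library (3 counts, a one-sided 95% limit). The exact Poisson 95% intervals of the libraries at 0 reached 8.71 to 12.1 CPM. No difference between the groups was tested for these genes in cortex. Cortex reads were counted with a strand option and hippocampal reads without one. The part of that option in these low counts was not tested.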

How the data were processed

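RNA-seq was examined from 7 hippocampal (ribosome-depleted total RNA) and 8 cortex (polyA-selected) rat libraries, per the labels. The authors deposited raw counts, 1 value per RefSeq transcript and library, from featureCounts 1.4.6-p2 on an rn5 annotation per the file headers, without a strand option in hippocampus and with option 1 in cortex. The submitters' processing notes also name FastQC 0.10.1, Trimmomatic, SAMtools 0.1.19, Bowtie2 and edgeR. The record length column, per the file headers, was used for values per kilobase. None of the 5 genes has a second record or a record of another gene overlapping its exons. Control and VNS libraries are numbered in accession order. The labels name no litter or batch, and p-values measure only the spread between these libraries.

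Symbols and promoter sequences were looked up in RefSeq tables (GRCr8), and 939 of 18278 records had no symbol. Counts were filtered with filterByExpr (minimum count 10, minimum total 15), TMM-scaled, and compared within a tissue by the two-sided quasi-likelihood test of edgeR 4.0.16 (glmQLFTest, R 4.3.3), adjusted after Benjamini and Hochberg over all records. SE is the absolute log2 fold change over the square root of F. Alternatives were DESeq2 size factors, no filter, DESeq2 1.42.0, limma-voom (limma 3.58.1), leaving out libraries, leaving out ribosomal and 7SL RNA, and counts summed per symbol. The tests were run on simulated counts first. No pair of libraries was a duplicate (smallest chi-square per degree of freedom 3.44). Named genes were the 6 symbols, the 2 genes with the smallest p in each subfield list, and the 3 records most like each gene among those with a mean of at least 1 CPM and no placeholder symbol. Neurod1, C1ql2, Plk5, Calb1, Ablim3, Rgs14, Trpc6, Sostdc1 and the single region markers were named after their values were seen. The genes and lists were chosen with earlier results of these data known.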

Additional observations from a re-analysis of the deposited data

Results flagged for a closer look

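Galnt3 in VNS library 3 stood far from the other VNS libraries, at 9.35 CPM against 2.43 to 3.10 CPM. The gap to the nearest library was 0.903 of the range of the 4 libraries, above Dixon's 95% critical value for 4 values. Chance alone gives such a gap in about 1 in 20 groups, and 5 genes were examined in the VNS group. The value rests on 46 counts in the library with the fewest counts outside ribosomal and 7SL RNA, 4301901, where ribosomal RNA took 73.1% of the counts. Scaled by total counts instead, Galnt3 in this library was at 2.75 CPM, inside the range of the other 3 VNS libraries (2.496 to 4.06 CPM), and without ribosomal and 7SL RNA in the total it was at 10.7 CPM. Without VNS library 3 the Galnt3 log2 fold change was 1.33 (SE 1.0005).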

How the results depend on the processing

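Of 70 values (5 genes under 14 alternatives each), 63 kept their direction and their side of the threshold, 1 (Galnt3 with DESeq2, which gave it no adjusted p) kept its direction, 3 passed the threshold (all without control library 3, given above) and 3 changed direction. All 3 reversals were of Amigo2, at 0.092 with limma-voom, 0.87 without control library 2 and 0.92 without control libraries 1 and 2. Other scalings with all 7 libraries kept each direction but not each size: by total counts the Prox1 means were 82.3 CPM in controls and 89.6 CPM with VNS, and those of Sipa1l2 206.5 and 71.9 CPM. The lowest and highest log2 fold changes when 1 library was left out were 0.38 and 1.21 for Prox1, 0.96 and 3.88 for Wfs1, 1.33 and 4.26 for Galnt3, -1.11 and -0.60 for Sipa1l2, and -0.60 and 0.87 for Amigo2. The count of hippocampal records called was 0 in the main analysis, 0 with limma-voom and 17 with DESeq2, and leaving out 1 library gave 0 to 1377, the latter without control library 3. At an unadjusted p under 0.05 there were 1537 records. In cortex 1 record was called, 5 without a filter, 0 with limma-voom, and 0 to 4 when 1 library was left out. The genes described here had no cortex value to vary. Scaling by total counts placed Prox1 of VNS library 3 at 48.2 CPM, below all other VNS libraries, where it had been the highest. With ribosomal and 7SL RNA left out of the total it was again the highest, at 187.4 CPM. These Prox1 values come from the same count, divided by 16728486 counts in full or by 4301901 without ribosomal and 7SL RNA. Why ribosomal RNA took so much of this library was not tested, nor was the cause of the other shifts. No paired analysis was possible because the labels give no replicate numbers shared between groups. Depth limits Galnt3 and all cortex values. Cortex values carry a further limit in which genes were highly counted. Mybph, a myosin-binding protein gene, had means of 8111 CPM in cortex controls and 9472 CPM with VNS. Actb, the beta-actin gene, had 320.3 and 447.7 CPM. The part of the strand option used for cortex in these levels was not tested.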
